A study of Mus musculus with 6 samples.

Results

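The 10 genes described here encode cytokines of the alveolus: the colony-stimulating factors Csf1, Csf2 and Csf3, the macrophage growth factor Il34, the interleukin-6 family members Il6 and Lif, and the epithelial alarm signals Il33, Il18, Il1a and Tslp. They were chosen by gene symbol, and all 10 were present among the 52550 rows of the count table. All 10 also had enough counts to be among the 18849 genes tested.

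RNA was sequenced from CD45-negative, EPCAM-positive cells taken by magnetic sorting from dispase-digested lungs of C57BL/6 mice, a sort aimed at alveolar epithelial type II cells, which make surfactant. The 3 libraries labelled Grp78KO came from Sftpc+/creERT2; Grp78f/f mice with tamoxifen (Tmx), and the 3 labelled Control from mice of the same genotype without it. Both groups therefore carry the inducible Cre at the surfactant protein C gene, which is meant to restrict recombination to type II cells, and floxed alleles of the chaperone gene Grp78 (Hspa5), so the drug and the deletion cannot be told apart. All 6 samples, Controls included, are labelled as taken 10 days after a Tmx injection, although the genotype of the Control libraries is given as without Tmx. No age, sex or animal is given for any library. The p-values therefore measure the spread between these libraries, which may be technical.

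Type II cells speak to the immune cells of the airspace through a small set of cytokines. Csf2 (GM-CSF) from type II cells is known to be needed for alveolar macrophages to mature and clear surfactant, while Csf1 and Il34 share the macrophage receptor Csf1r. Il6 and Lif signal through the shared subunit Il6st (gp130), paired with Il6ra or Lifr. Il33 is a nuclear protein released from damaged cells that acts on Il1rl1 (ST2); Il18 and Il1a belong to the same interleukin-1 family, and Tslp acts through Crlf2 and Il7r.

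Hspa5 was read first as the check of the label. It stood at 9262, 9180 and 3809 counts per 1000000 (CPM, scaled with TMM factors) in Grp78KO libraries 1, 2 and 3, against 1355, 1289 and 925 CPM in Control libraries 1, 2 and 3 (log2 fold 2.64, SE 0.361, edgeR adjusted p = 0.00208). The rise goes against a loss of the gene, and counts per gene cannot show whether the floxed exons were removed, so every direction given here compares libraries by their labels. Library totals were 110770711 to 128129307 counts for the libraries labelled Grp78KO and 131235053 to 149520306 counts for those labelled Control. Type II markers (12 genes) were abundant in all 6 libraries but summed to 40608 to 51375 CPM in the libraries labelled Grp78KO and to 104071 to 120916 CPM in those labelled Control, and all 12 were called lower. Grp78KO library 3 stood apart in its leukocyte RNA, with Ptprc (CD45) at 10.99 CPM against 0.963 to 2.07 CPM in the other 5 libraries. In bulk samples such as these, fewer cells of a type and less RNA per cell cannot be told apart.

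**Figure D1:**
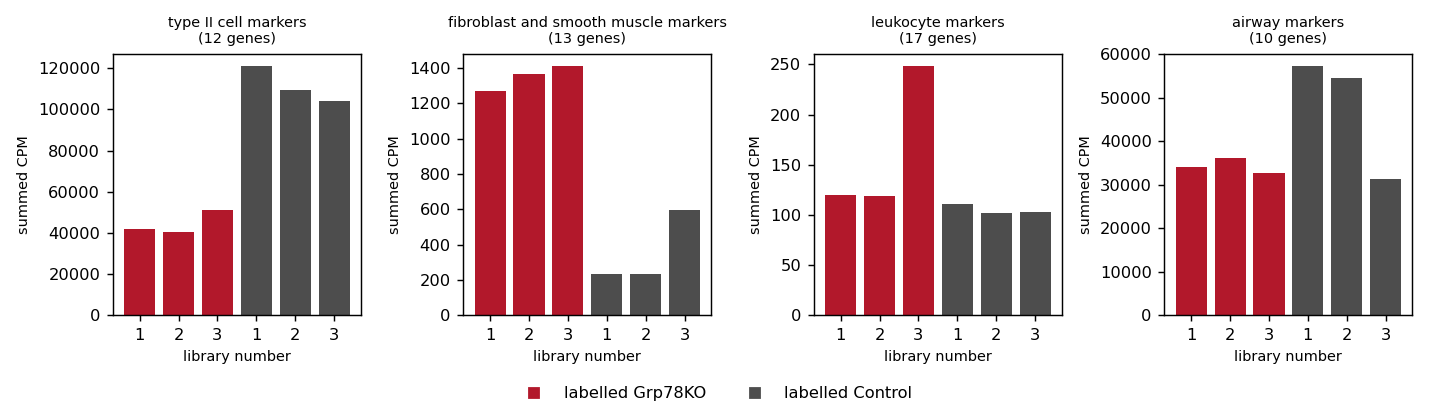
Summed CPM of marker genes in each library (bars), by library number, for type II cells, fibroblasts and smooth muscle, leukocytes and airway cells, with libraries labelled Grp78KO in red and libraries labelled Control in grey. Type II sums were 40608 to 51375 CPM in the Grp78KO libraries and 104071 to 120916 CPM in the Control libraries, while fibroblast sums were 1270 to 1409 CPM in the Grp78KO libraries and 235 to 597 CPM in the Control libraries.

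Of the 10 cytokine genes, 3 were called higher (Csf1, Il6 and Lif) and 3 lower (Csf2, Il33 and Il34) in the libraries labelled Grp78KO, at an edgeR adjusted p under 0.05. Over all tested genes, 18.0% were called higher and 18.8% lower. The groups did not overlap for 8 of the 10: 5 lay wholly higher (Csf1, Il6, Lif, Il18 and Tslp) and 3 wholly lower, against 25.0% and 26.6% of all tested genes. The median log2 fold change of the 10 was 0.61, against 0.02 over all tested genes. That median lay between Il18 (0.53) and Il1a (0.70), neither of them called. Csf3, Il1a and Tslp, with at most 63 counts in any library, lay above it without being called. Leaving out Grp78KO library 2 left 1 gene called higher, Il6, and leaving out Grp78KO library 1, Grp78KO library 2 or Control library 2 left 1 called lower, Csf2. With both libraries numbered 3 left out, 4 were called higher and 3 lower. Scaling by library size alone shifted the median of all genes to 0.27 and the share of calls that were higher to 82.2%, against 48.9% with TMM; upper-quartile scaling gave 59.2%. Under library-size scaling 4 of the cytokine genes were called higher and 1 lower.

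**Figure D2:**
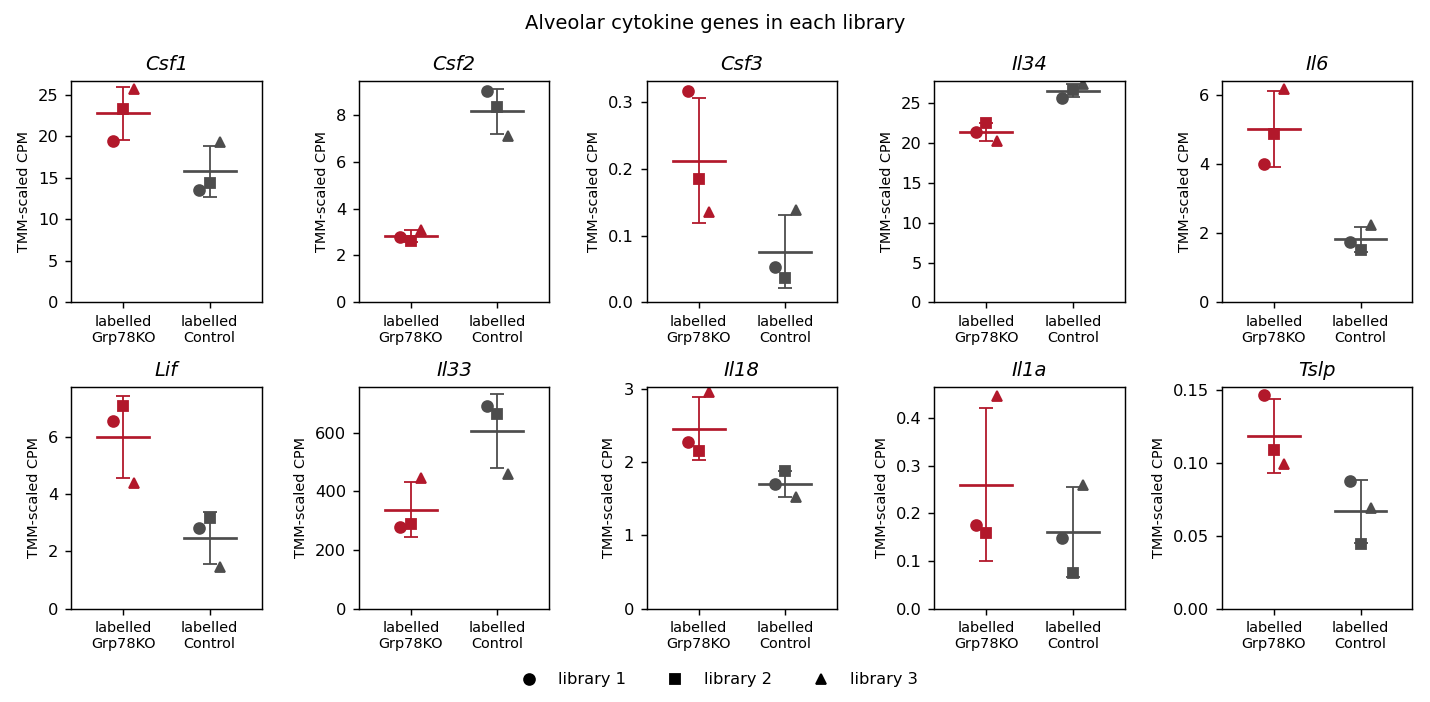
TMM-scaled CPM of each cytokine gene in every library (points; shape marks the library number), with the mean (line) and SD (bars, n = 3), libraries labelled Grp78KO on the left of each panel and Control on the right. Csf2, at 2.60 to 3.09 CPM in the Grp78KO libraries and 7.08 to 8.98 CPM in the Control libraries, is wholly lower in the Grp78KO libraries, and Il6, at 3.99 to 6.17 CPM in the Grp78KO libraries and 1.53 to 2.23 CPM in the Control libraries, is wholly higher there.

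The stretches of 250 bases before the RefSeq start site (GRCm38.p6) are shown for the called genes whose stretch holds a searched motif, and for Csf2 as the one that fell furthest. RefSeq promoters were matched for 7 of the 10 genes (Csf1, Csf2, Il33, Il18, Il1a, Il6 and Lif). Capitals mark matches, on either strand, to the AP-1 motif (TGANTCA) or the kappaB motif, bound by the inflammatory factors AP-1 and NF-kappaB.
Il6, chr5:30012864-30013113, plus strand: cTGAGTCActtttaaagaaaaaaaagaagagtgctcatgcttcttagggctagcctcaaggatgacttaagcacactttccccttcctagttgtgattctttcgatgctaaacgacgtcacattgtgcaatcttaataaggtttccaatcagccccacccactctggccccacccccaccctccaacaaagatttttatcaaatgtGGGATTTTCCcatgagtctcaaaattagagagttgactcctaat
Csf1, chr3:107760470-107760719, minus strand: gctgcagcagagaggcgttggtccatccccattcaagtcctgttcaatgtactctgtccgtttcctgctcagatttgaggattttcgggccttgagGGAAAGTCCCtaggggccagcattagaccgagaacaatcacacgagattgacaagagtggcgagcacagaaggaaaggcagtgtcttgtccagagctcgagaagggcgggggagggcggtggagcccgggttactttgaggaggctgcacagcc
Lif, chr11:4257318-4257567, plus strand: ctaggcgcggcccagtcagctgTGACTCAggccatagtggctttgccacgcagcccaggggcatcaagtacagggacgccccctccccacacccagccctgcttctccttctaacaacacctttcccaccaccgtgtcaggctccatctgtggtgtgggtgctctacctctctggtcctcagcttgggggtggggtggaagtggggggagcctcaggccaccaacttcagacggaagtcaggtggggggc
Csf2, chr11:54249900-54250149, minus strand: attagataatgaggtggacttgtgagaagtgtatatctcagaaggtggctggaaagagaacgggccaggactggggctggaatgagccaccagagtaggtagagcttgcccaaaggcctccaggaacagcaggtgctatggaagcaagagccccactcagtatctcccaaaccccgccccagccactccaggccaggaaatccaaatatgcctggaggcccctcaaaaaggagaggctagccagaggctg
The AP-1 letters were found in Il6, Lif and Il1a and in 6.75% of all 32851 promoter stretches, and the kappaB letters in Il6 and Csf1 and in 1.41% of all. Neither was found in Csf2, Il33 or Il18. TGATGCAA, a C/EBP-ATF element, and TGACGTCA, the cyclic AMP response element, were found in none of the 7 genes and in 0.791% and 1.55% of all stretches. The RefSeq start of Csf2 lies 232 bases upstream of the GENCODE start, so its stretch is not the one next to the GENCODE start. These matches describe letters and are not shown binding sites.

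Csf2 (chromosome 11, 54247271 to 54249667, minus strand, mm10), the GM-CSF gene, fell the furthest of the 10 cytokine genes. It was at 2.79, 2.60 and 3.09 CPM in Grp78KO libraries 1, 2 and 3, against 8.98, 8.34 and 7.08 CPM in Control libraries 1, 2 and 3. Every Grp78KO library lay below every Control library, and within each group the libraries lay close together. Csf2 thus averaged 2.83 ± 0.248 CPM in the libraries labelled Grp78KO and 8.13 ± 0.97 CPM in those labelled Control (SD, n = 3 each), a 2.87-fold fall (log2 fold -1.52, SE 0.143, edgeR adjusted p = 0.00068). All 15 alternatives called it, with log2 fold changes of -1.68 to -1.26.

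The fall of Csf2 lay within the range of the 12 type II markers, whose log2 folds ran from -1.59 to -0.33 with a median of -1.19. Set against the summed type II marker CPM of its own library, Csf2 came to 66.8, 63.9 and 60.1 CPM per 1000000 CPM of markers in Grp78KO libraries 1, 2 and 3, and to 74.3, 76.1 and 68.0 in Control libraries 1, 2 and 3. On that scale the Grp78KO mean was 0.874 times the Control mean, and the groups did not overlap, though narrowly (66.8 against 68.0). For the other 9 cytokine genes the same ratio was 1.39 (Il33) to 7.03 (Csf3) times the Control mean. These ratios are a description with no test. The marker sum was mostly Sftpc, Sftpa1 and Sftpb, at Control means of 48732, 23614 and 15106 CPM, so the ratios mainly follow these surfactant genes. Among the 12 markers, only Sftpc and Etv5 fell further than Csf2 (log2 fold -1.59 and -1.56). The others fell less, down to -0.33 for Epcam, the gene of the protein used in the sort.

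An antisense transcript, Gm12223, overlaps exons of Csf2 on the other strand. It was at 0.162, 0.151 and 0.347 CPM in Grp78KO libraries 1, 2 and 3 and at 0.956, 1.05 and 1.16 CPM in Control libraries 1, 2 and 3, and fell as well (log2 fold -2.25, SE 0.376, edgeR adjusted p = 0.00421). The library kit is not stated to keep strand, so reads from the shared bases of the pair cannot be told apart. Gm12223 held far fewer counts than Csf2, 18 to 49 against 309 to 436 in the Grp78KO libraries and 109 to 152 against 924 to 1128 in the Control libraries.

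Csf1 and Il34, the ligands of the receptor Csf1r, moved in opposite directions. Csf1 (chromosome 3, 107741048 to 107760469, minus strand) was at 19.4, 23.2 and 25.7 CPM in Grp78KO libraries 1, 2 and 3, against 13.6, 14.4 and 19.3 CPM in Control libraries 1, 2 and 3. Grp78KO library 1 lay only just above Control library 3. Its log2 fold change came to 0.53 (SE 0.164, edgeR adjusted p = 0.0382), and the call ended without Grp78KO library 2, Grp78KO library 3, Control library 1 or Control library 2 (edgeR adjusted p = 0.0746 to 0.138). Il34 (chromosome 8, 110741829 to 110805924, minus strand) was at 21.4, 22.5 and 20.2 CPM in Grp78KO libraries 1, 2 and 3, against 25.6, 26.6 and 27.3 CPM in Control libraries 1, 2 and 3.

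The fall of Il34 was small and tight, with the groups apart (log2 fold -0.31, SE 0.0841, edgeR adjusted p = 0.0244). It was not called with upper-quartile scaling (edgeR adjusted p = 0.0634) or library-size scaling (log2 fold -0.06, edgeR adjusted p = 0.659), nor without Grp78KO library 1 or 2 or Control library 2 or 3 (edgeR adjusted p = 0.0517 to 0.0901). Within a library, a ratio needs no scaling: Csf1 per length of exon was 0.336, 0.382 and 0.471 times Il34 in Grp78KO libraries 1, 2 and 3 and 0.196, 0.201 and 0.262 times Il34 in Control libraries 1, 2 and 3. Those ratios did not overlap, and the mean difference was 0.85 on the log2 scale (two-sided exact permutation test, p = 0.1, the smallest that 3 against 3 allows). Csf1 lay wholly higher and Il34 wholly lower in CPM, so the ratios had to separate and the p had to take that value. The test thus adds no support to the 2 changes. Antisense genes overlap exons of Il34, the more abundant being Gm15895 at 0.850 to 1.10 CPM in the Grp78KO libraries and 0.680 to 0.781 CPM in the Control libraries.

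Csf3, the G-CSF gene that drives neutrophil production, was near the limit of detection. Its counts were 43, 22 and 19 in Grp78KO libraries 1, 2 and 3, and 6, 5 and 18 in Control libraries 1, 2 and 3. In CPM, Control library 3 (0.138) lay above Grp78KO library 3 (0.135), so the groups overlapped, and the log2 fold change of 1.47 (SE 0.599) was not called (edgeR adjusted p = 0.0902). Without Control library 3 it was called, at a log2 fold change of 2.23 (edgeR adjusted p = 0.0387), and without both libraries numbered 3 at 2.48 (edgeR adjusted p = 0.00695).

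Il6 and Lif, the cytokines of the gp130 family, both rose. Il6 (chromosome 5, 30013114 to 30019981, plus strand), the acute-phase cytokine, was at 3.99, 4.87 and 6.17 CPM in Grp78KO libraries 1, 2 and 3, against 1.74, 1.53 and 2.23 CPM in Control libraries 1, 2 and 3. The lowest Grp78KO library was well above the highest Control library, and Grp78KO library 3 was the highest of all. Il6 averaged 5.01 ± 1.09 CPM in the libraries labelled Grp78KO and 1.83 ± 0.359 CPM in those labelled Control (SD, n = 3 each), a 2.74-fold rise (log2 fold 1.45, SE 0.222, edgeR adjusted p = 0.00307) that all 15 alternatives called. Without the leukocyte-rich Grp78KO library 3 the log2 fold was 1.27 (edgeR adjusted p = 0.0029).

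Lif (chromosome 11, 4257557 to 4272514, plus strand), leukemia inhibitory factor, was at 6.57, 7.08 and 4.39 CPM in Grp78KO libraries 1, 2 and 3, against 2.82, 3.16 and 1.45 CPM in Control libraries 1, 2 and 3. The groups were apart, and library 3 was the lowest in both. It was 2.42-fold higher in the Grp78KO libraries (log2 fold 1.28, SE 0.312, edgeR adjusted p = 0.0171). The call ended without Grp78KO library 1 or 2 (edgeR adjusted p = 0.0543 and 0.064). Per length of exon, Il6 was 1.09, 1.23 and 2.52 times Lif in Grp78KO libraries 1, 2 and 3 and 1.10, 0.866 and 2.74 times Lif in Control libraries 1, 2 and 3, so no difference between the groups was seen in that ratio (log2 difference 0.12, two-sided exact permutation test, p = 0.8).

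Fibroblast and smooth muscle markers were also higher in the libraries labelled Grp78KO. The 13 markers summed to 1270, 1369 and 1409 CPM in Grp78KO libraries 1, 2 and 3 and to 237, 235 and 597 CPM in Control libraries 1, 2 and 3, and all 13 were called higher. Their sum was highest in library 3 of both groups, where Il6 and Csf1 were highest and Lif was lowest. That sum was mostly Col1a1, Col1a2 and Col3a1, at Grp78KO means of 341, 315 and 426 CPM, and single markers differed. In Grp78KO libraries 1, 2 and 3, Col1a1 was at 297, 323 and 404 CPM. Acta2 was at 20.1, 20.8 and 9.10 CPM there, and Pdgfra at 24.9, 25.8 and 17.4 CPM, both lowest in library 3. Mesothelial markers (8 genes, 7 called higher) summed to 234 to 270.0 CPM in the Grp78KO libraries and 134 to 152 CPM in the Control libraries. Endothelial markers (10 genes, 1 called higher) summed to 855, 899 and 537 CPM in Grp78KO libraries 1, 2 and 3. In Control libraries 1, 2 and 3 they summed to 575, 588 and 541 CPM. Fibroblasts and mesothelium are known to make Il6, Lif and Csf1. The part of any of these cell types in the 3 rises was not tested.

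Il33 (chromosome 19, 29925114 to 29960718, plus strand) was by far the most abundant of the cytokine genes and fell. It was at 279.6, 288 and 447 CPM in Grp78KO libraries 1, 2 and 3, against 691, 664 and 460.1 CPM in Control libraries 1, 2 and 3. The groups did not overlap, but only just, since Grp78KO library 3 and Control library 3 were nearly level. The mean was 338 ± 94.4 CPM in the libraries labelled Grp78KO and 605 ± 126 CPM in those labelled Control (SD, n = 3 each), a 1.79-fold fall (log2 fold -0.84, SE 0.232, edgeR adjusted p = 0.0264).

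The Il33 call depended on the fit. With the replicate number as a block the adjusted p was 0.0512, with library-size scaling it was 0.0959 (log2 fold -0.56), and without Grp78KO library 1 or 2 or Control library 1 or 2 it was 0.0738 to 0.0966, all from edgeR. Without both libraries numbered 3 the log2 fold was -1.25 (edgeR adjusted p = 2.8e-07). Airway cell markers also varied between libraries. The 10 genes (2 called higher, 0 lower) summed to 32648 to 36223 CPM in the Grp78KO libraries. In Control libraries 1, 2 and 3 they summed to 57271, 54513 and 31391 CPM. Most of the sum was Scgb1a1, at 27830, 30127 and 26914 CPM in Grp78KO libraries 1, 2 and 3. In Control libraries 1, 2 and 3 Scgb1a1 was at 48330, 46148 and 26136 CPM (edgeR adjusted p = 0.156). The part of airway cells in the Il33 level was not tested.

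The remaining alarm cytokines stayed under the threshold. Il18, whose precursor is cut by caspase-1, was at 2.28, 2.15 and 2.96 CPM in Grp78KO libraries 1, 2 and 3, against 1.70, 1.88 and 1.52 CPM in Control libraries 1, 2 and 3. All Grp78KO values were above all Control values, with a log2 fold change of 0.53 (SE 0.198, edgeR adjusted p = 0.0698); DESeq2 called it (adjusted p = 0.034), as did edgeR with library-size scaling (adjusted p = 0.023) and upper-quartile scaling (adjusted p = 0.0451). Il1a, an alarmin that is active as a precursor, had 24, 19 and 63 counts in Grp78KO libraries 1, 2 and 3 and 17, 10 and 34 counts in Control libraries 1, 2 and 3. The groups overlapped, and library 3 was the highest in both (log2 fold 0.70, SE 0.594, edgeR adjusted p = 0.386, and 0.06 without Grp78KO library 3). Gm14023, on the other strand, overlaps exons of Il1a and had nearly as many counts. These were 21, 10 and 35 in Grp78KO libraries 1, 2 and 3 and 16, 7 and 31 in Control libraries 1, 2 and 3. Reads from the bases shared by Il1a and Gm14023 cannot be told apart. Tslp, which activates dendritic cells and type 2 lymphocytes, had 20, 13 and 14 counts in Grp78KO libraries 1, 2 and 3 and 10, 6 and 9 counts in Control libraries 1, 2 and 3 (log2 fold 0.82, SE 0.464, edgeR adjusted p = 0.197). Neither Il1a nor Tslp was called in any alternative that tested it.

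**Figure D3:**
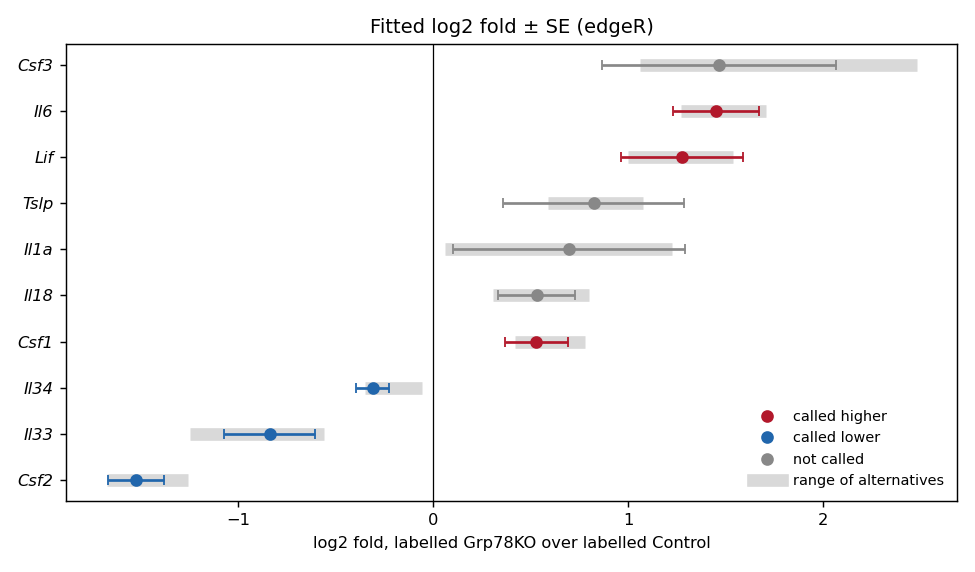
Fitted log2 fold change of each cytokine gene, libraries labelled Grp78KO over libraries labelled Control (points, ± SE, edgeR). The grey band is the range over those of the 15 alternatives that tested the gene. Csf2 at -1.52 and Il6 at 1.45 kept their call in every alternative, and no gene's band crosses 0.

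Scaled by exon length, the cytokine genes spanned a wide range, and Il33 made up most of their summed level. It stood at 96.9, 99.7 and 155 CPM per kilobase of exon in Grp78KO libraries 1, 2 and 3 and at 239.5, 230.1 and 159 in Control libraries 1, 2 and 3. Its share of the 10 genes' summed length-scaled level averaged 81.9% in the Grp78KO libraries and 87.2% in the Control libraries, with the groups overlapping. Il34 came next, at 10.9 ± 0.582 CPM per kilobase in the Grp78KO libraries and 13.5 ± 0.435 in the Control libraries (SD, n = 3 each).

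The third place differed between the groups. In the Control libraries it was held by Csf2 (10.2 ± 1.21 CPM per kilobase), clear of Csf1 (2.98 ± 0.589), and in the Grp78KO libraries by Csf1 (4.31 ± 0.606), whose range overlapped that of Csf2 (3.53 ± 0.31; SD, n = 3 each). The length-scaled ratio of Csf1 to Csf2 was 1.05, 1.35 and 1.26 in Grp78KO libraries 1, 2 and 3 and 0.229, 0.262 and 0.414 in Control libraries 1, 2 and 3 (two-sided exact permutation test, p = 0.1, the smallest possible). With Csf1 wholly higher and Csf2 wholly lower in CPM, this separation and its p were fixed beforehand and add no support. Il18, Il6 and Lif followed in both groups. The ranges of Il6 and Lif overlapped in the Control libraries, and those of Il18 and Il6 in the Grp78KO libraries. Il1a, Csf3 and Tslp were lowest, and neighbours among these 3 overlapped in both groups.

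**Figure D4:**
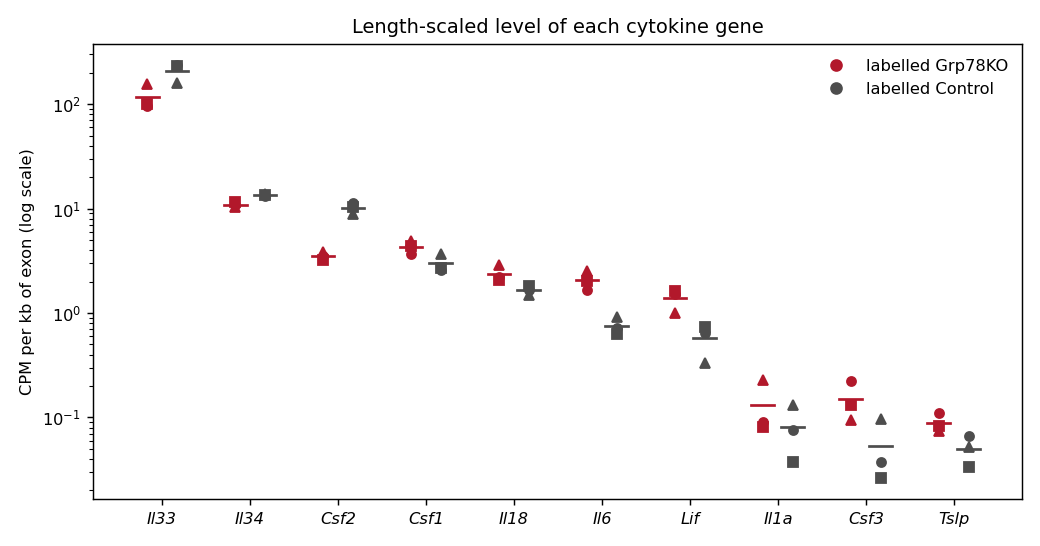
CPM per kilobase of exon (log axis) of each cytokine gene in every library (points; circle, square and triangle for libraries 1, 2 and 3) with group means (lines), libraries labelled Grp78KO left of those labelled Control, genes in order of their Control mean. Il33 lies above all others in both groups, and Csf2 falls to the level of Csf1 in the Grp78KO libraries.

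Receptors of these cytokines were present in the sorted cells at very different levels. Of 15 receptor genes tested, 2 were called higher (Crlf2 and Csf3r) and 3 lower (Lifr, Il18r1 and Il1r1), with a median log2 fold change of 0.27, beside 18.0% of all tested genes called higher and 18.8% lower. With the replicate block 4 were called higher, as they were without both libraries numbered 3, when 5 were called lower. Leaving out Grp78KO library 3, Control library 1 or Control library 2 left 1 called higher, leaving out Grp78KO library 1 or 2 left 1 called lower, and library-size scaling left 1 called lower.

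Lifr, the receptor of Lif, fell while its ligand rose. It was at 20.6, 23.2 and 25.4 CPM in Grp78KO libraries 1, 2 and 3, against 52.0, 53.2 and 58.6 CPM in Control libraries 1, 2 and 3, with a wide gap between the groups (log2 fold -1.24, SE 0.105, edgeR adjusted p = 0.000513). Il6st and Il6ra, which complete these receptors, had log2 fold changes of -0.21 and -0.02 (edgeR adjusted p = 0.127 and 0.923). Crlf2, the Tslp receptor subunit, was at 10.8, 9.33 and 9.39 CPM in Grp78KO libraries 1, 2 and 3, against 4.29, 3.69 and 3.65 CPM in Control libraries 1, 2 and 3 and rose (log2 fold 1.35, SE 0.127, edgeR adjusted p = 0.00068). Both calls held in all 15 alternatives.

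Il18r1, the ligand-binding chain of the Il18 receptor, had the highest mean level of the receptor genes per length of exon in both groups. In Grp78KO libraries 1 and 2, however, Il6st was slightly higher (23.3 and 24.9 CPM per kilobase, against 23.1 and 24.2 for Il18r1). The CPM of Il18r1 was 111, 117 and 137 in Grp78KO libraries 1, 2 and 3 and 168, 172 and 161 in Control libraries 1, 2 and 3 (log2 fold -0.46, SE 0.106, edgeR adjusted p = 0.0136). Il1r1, the receptor of Il1a, fell by 0.45 on the log2 scale (SE 0.116, edgeR adjusted p = 0.0205). Both calls ended with library-size scaling and without Grp78KO library 1 or 2, and that of Il18r1 also without Control library 2. Csf3r rose by a log2 fold change of 1.37 (SE 0.395, edgeR adjusted p = 0.0305) at under 1 CPM in every library. That call ended with the replicate block (edgeR adjusted p = 0.0548) and without Grp78KO library 3 or any 1 Control library (edgeR adjusted p = 0.0658 to 0.0837). Without both libraries numbered 3 the Csf3r log2 fold was 0.84 (edgeR adjusted p = 0.106).

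Receptor genes known from leukocytes were high in Grp78KO library 3. Csf1r was at 1.67, 1.97 and 19.6 CPM in Grp78KO libraries 1, 2 and 3 and at 2.59, 3.30 and 3.33 CPM in Control libraries 1, 2 and 3 (log2 fold 1.33, edgeR adjusted p = 0.285). Csf2rb, the signalling chain of the GM-CSF receptor, was at 3.16, 3.97 and 13.4 CPM in Grp78KO libraries 1, 2 and 3 and at 2.57, 2.47 and 7.10 CPM in Control libraries 1, 2 and 3 (edgeR adjusted p = 0.39). Il1rl1, the Il33 receptor, was at 0.485, 0.429 and 0.843 CPM in Grp78KO libraries 1, 2 and 3 and at 0.0526, 0.0443 and 0.314 CPM in Control libraries 1, 2 and 3, apart but not called (log2 fold 2.08, SE 0.734, edgeR adjusted p = 0.0588). The leukocyte list of 17 genes, of which Cd14 made up most outside Grp78KO library 3, summed to 120, 118 and 248 CPM in Grp78KO libraries 1, 2 and 3 and to 111, 102 and 103 CPM in Control libraries 1, 2 and 3, with 2 markers called higher. The part of leukocytes in these receptor levels was not tested.

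**Figure D5:**
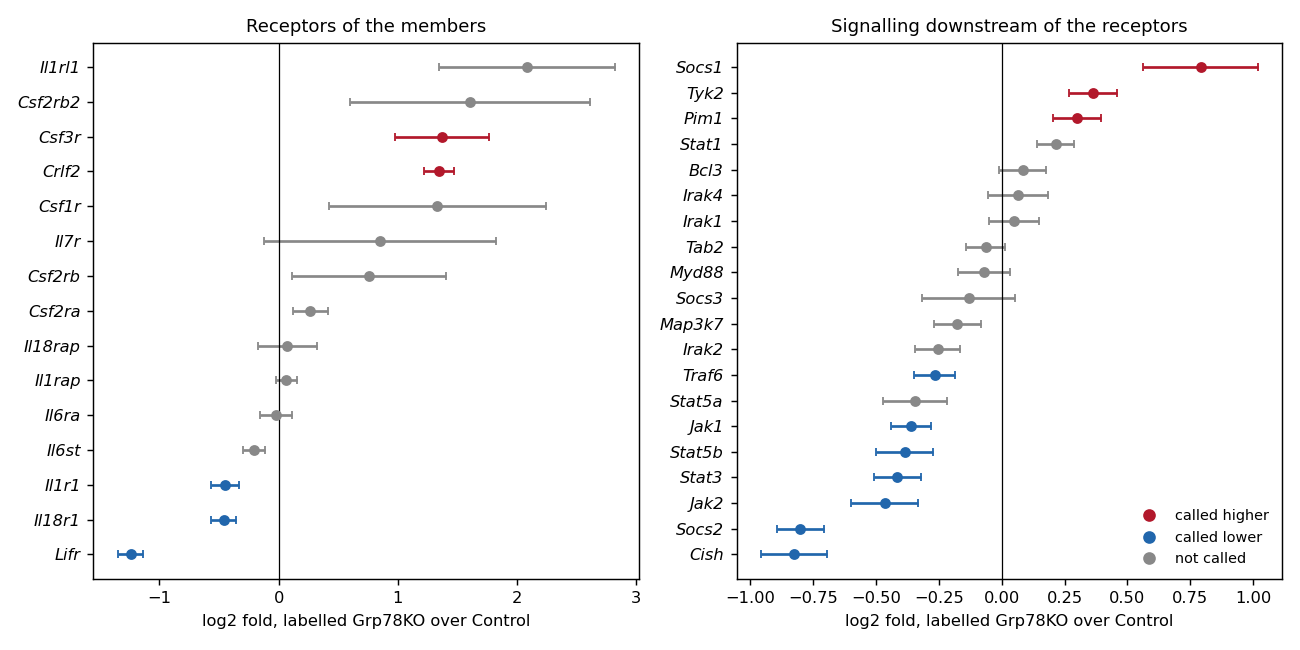
Fitted log2 folds (± SE, edgeR), libraries labelled Grp78KO over libraries labelled Control, of 15 receptor genes (left) and 20 signalling genes (right), coloured by call. Lifr at -1.24 and Crlf2 at 1.35 have the lowest adjusted p among receptors, and Cish at -0.82 and Socs2 at -0.80 are the lowest signalling genes.

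Genes that act below these receptors went both ways. Of 20 tested, 3 were called higher (Socs1, Tyk2 and Pim1) and 7 lower (Cish, Socs2, Jak1, Jak2, Stat3, Stat5b and Traf6), with a median log2 fold change of -0.15, beside 18.0% higher and 18.8% lower over all tested genes. Library-size scaling turned that balance to 6 higher and 2 lower. Cish, a feedback inhibitor, was at 18.4, 19.9 and 19.6 CPM in Grp78KO libraries 1, 2 and 3, against 38.3, 36.6 and 27.7 CPM in Control libraries 1, 2 and 3 (log2 fold -0.82, SE 0.131, edgeR adjusted p = 0.00356). Socs2 was at 139, 144 and 139 CPM in Grp78KO libraries 1, 2 and 3, against 258, 247 and 230.0 CPM in Control libraries 1, 2 and 3 (log2 fold -0.80, SE 0.0927, edgeR adjusted p = 0.00116). The groups were apart for both, and both calls held in all 15 alternatives. Those of Jak1 (log2 fold -0.36) and Stat3 (log2 fold -0.42) ended with library-size scaling and without Grp78KO library 1 or 2 or Control library 2. Socs3, the feedback inhibitor induced through gp130, had a log2 fold change of -0.13 (SE 0.185, edgeR adjusted p = 0.605). Socs1 and Pim1 rose (log2 fold 0.79 and 0.30, edgeR adjusted p = 0.03 and 0.0409). Their calls ended without Grp78KO library 2 or any 1 Control library.

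The signalling counts moved with the fit in other ways too. Upper-quartile scaling gave 4 lower. Leaving out Grp78KO library 1 or 2 or Control library 2 left 2 lower. With 1 library left out, 1 was called higher without Grp78KO library 1 or Control library 3, and edgeR called 0 higher without Grp78KO library 2, Control library 1 or Control library 2, where 3 or 4 were higher at an unadjusted p under 0.05. No other tool was run with libraries left out.

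Among 16 decoys, antagonists and processing enzymes, 3 were called higher (Il1rn, Il18bp and Capn2) and 2 lower (Furin and Capn1), near or below the 18.0% higher and 18.8% lower of all tested genes. Il1rn, which encodes the interleukin-1 receptor antagonist, was at 0.603, 0.445 and 1.86 CPM in Grp78KO libraries 1, 2 and 3, against 0.211, 0.140 and 0.153 CPM in Control libraries 1, 2 and 3 (log2 fold 2.53, SE 0.580, edgeR adjusted p = 0.0135), a call that ended without Control library 2. Without Grp78KO library 3, where Il1rn was highest, its log2 fold was 1.64 (edgeR adjusted p = 0.0102), and without both libraries numbered 3 it was 1.59 (edgeR adjusted p = 0.00838). Il18bp, the secreted decoy of Il18, rose by a log2 fold change of 0.58 (edgeR adjusted p = 0.0291), a call that ended without any 1 library other than Grp78KO library 3, and the proprotein convertase gene Furin fell by 0.82 (edgeR adjusted p = 0.00424). Capn1 and Capn2, calpains known to process Il1a, had log2 fold changes of -0.27 and 0.40 (edgeR adjusted p = 0.0362 and 0.0368), and Capn1 was called in 7 of 15 alternatives. The Capn2 call ended without any 1 library other than Grp78KO library 3 (edgeR adjusted p = 0.0784 to 0.137). The replicate block called 5 lower and library-size scaling 6 higher. Without Grp78KO library 1, Grp78KO library 2, Control library 1 or Control library 3 there was 1 call higher, and edgeR called 0 higher without Control library 2 (3 at an unadjusted p under 0.05). Calls lower came to 1 without any 1 of these 5 libraries.

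Related ligands of the same families were mostly low. Of 20 listed, 16 had a row and 11 were tested; 2 were called higher (Flt3l and Il1b) and 2 lower (Il7 and Ctf1), near the 18.0% and 18.8% of all tested genes. Il7, a lymphocyte survival factor, fell by 0.48 on the log2 scale (edgeR adjusted p = 0.0129), and Flt3l, a dendritic cell growth factor, rose by a log2 fold change of 0.84 (edgeR adjusted p = 0.0136). The Il7 call ended with library-size scaling and without Grp78KO library 1, and that of Flt3l without Grp78KO library 2. Il1b, the leukocyte counterpart of Il1a, rose to 0.776 ± 0.202 CPM in the libraries labelled Grp78KO, against 0.372 ± 0.0764 CPM in those labelled Control (SD, n = 3 each; edgeR adjusted p = 0.0302), a call that ended with the replicate block, without both libraries numbered 3, and without each single library except Control library 1. Hmgb1, a nuclear alarmin, had a log2 fold change of -0.15 (edgeR adjusted p = 0.269). Without Grp78KO library 2 edgeR called 0 higher (2 at an unadjusted p under 0.05), and without Grp78KO library 1 or Control library 2 it called 1. Without Grp78KO library 1 it called 0 lower (2 at an unadjusted p under 0.05), and without Grp78KO library 2 or Control library 1 or 2 it called 1.

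Over the 6 libraries, the genes of at least median expression whose log2 CPM followed Csf2 most closely were Gpr108, Prps2 and Ctsc, with Pearson's r of 0.9989, 0.9984 and 0.9984 among 9425 genes compared. Those that followed Il33 were Ap1g1, Ptgs2os2 and Fbxw11, with r of 0.998, 0.9952 and 0.9939. With 6 libraries in 2 groups such values are common: 1090 genes exceeded an r of 0.95 with Csf2 and 206 with Il33.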

How the data were processed

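RNA was sequenced as paired reads from NEBNext Ultra libraries, per the labels' protocols. The authors deposited one table of raw counts per gene symbol; the submitters' processing notes name mm10 and edgeR 3.7, and the sources used here name no aligner, counter, annotation or strand setting. Genes with a count of 2 outnumbered those with a count of 1 by a ratio of 1.63 to 1.76 per library, so mates may have been counted singly and counting error may exceed what the counts imply.

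Counts were fitted with the quasi-likelihood F test of edgeR 4.0.16 (R 4.3.3), after filterByExpr, with TMM scaling, robust dispersions and group as the only term, with Benjamini-Hochberg adjustment over all 18849 genes tested and a threshold of 0.05. CPM are scaled by TMM. The SE was taken as the log2 fold divided by the root of F. Variation between libraries, which may be technical, had a common coefficient of 22.3% in edgeR. The fit was tested on simulated data. Alternatives were DESeq2 1.42.0, limma-voom 3.58.1, other scalings and filters, the replicate block and leaving out libraries. Exact permutation tests used scipy 1.17.1.

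Gene models came from GENCODE M21 (48018 symbols matched) on the same build; exon length is the union of its exons and may differ from what the authors counted. Named genes were all 10 cytokine genes, Hspa5, Sftpc, Ptprc, Csf1r, up to 4 genes per list (lowest adjusted p), and the genes most like Csf2 and Il33. Other receptors, list members, markers and antisense genes were named after their values were seen. The cytokine genes and lists were chosen with earlier results of these data known.

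Deviations from the group means correlated at 0.25, 0.178 and 0.31 between same-numbered libraries, all above 0.1. The numbers may therefore pair the libraries, though the labels do not say what they mark. The main fit, and so every p-value given without a named alternative, left this possible pairing out. The replicate block was run only as an alternative. Differently numbered libraries 1 and 2 also correlated, at 0.125 and 0.151. Replicates differed by more than sampling noise in every pair (8.52 to 181 chi-square units per gene, counts halved).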

Additional observations from a re-analysis of the deposited data

How the results depend on the processing

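Over 147 pairs of a cytokine gene and an alternative, 124 kept direction and side of the threshold, 18 lost a call, 5 gained one and 0 reversed. Csf2 and Il6 were called in all 15 alternatives, and Il1a and Tslp in none of those that tested them. With 1 library left out, genes called higher ran from 1684 to 4242 and lower from 1881 to 4306 over all genes, cytokine genes from 1 to 4 and 1 to 3, receptors from 1 to 3 and 1 to 4, decoys and enzymes from 0 to 4 and 1 to 3, signalling genes from 0 to 3 and 2 to 7, and related ligands from 0 to 2 and 0 to 2. Without both libraries numbered 3, 5355 genes were called higher, 4 receptors were higher and 5 lower, 6 decoys and enzymes lower and 4 related ligands lower. With library-size scaling, 6218 genes were higher and 1343 lower; of the lists, 1 cytokine gene was lower, 1 receptor lower, 6 decoys and enzymes higher and 1 lower, 6 signalling genes higher and 2 lower, and 0 related ligands lower in edgeR (0 at an unadjusted p under 0.05, against 2 called lower by TMM). Upper-quartile scaling left 1 decoy or enzyme, 4 signalling genes and 1 related ligand lower; the absence of a filter left 1 decoy or enzyme and 1 related ligand lower; the 1 CPM filter left 1 receptor and 1 related ligand higher and tested neither Csf3, Il1a nor Tslp. The replicate block called 4 receptors higher and 5 decoys and enzymes lower. It ended the calls of Il33 (edgeR adjusted p = 0.0512), Csf3r (edgeR adjusted p = 0.0548) and Il1b. The cause of these shifts was not tested. Csf3, Il1a and Tslp had at most 63 counts in any library, and the parts of low counts and of spread between libraries in their results were not told apart.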

Other observations

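Osm, the oncostatin M gene of the interleukin-6 family, was at 1.68, 1.67 and 14.5 CPM in Grp78KO libraries 1, 2 and 3 and at 1.27, 1.22 and 5.68 CPM in Control libraries 1, 2 and 3, and was not called (edgeR adjusted p = 0.409). The libraries numbered 3 were the highest in both groups. S100a8 and S100a9, calgranulin genes of neutrophils, were also highest there, at 4.03 and 6.24 CPM in Grp78KO library 3 and at 2.88 and 3.91 CPM in Control library 3. In the other libraries they lay between 0.597 and 0.874 CPM for those labelled Grp78KO and between 0.272 and 0.436 CPM for those labelled Control.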
